A study of Mus musculus with 6 samples.

Results

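The activin branch of TGF-β signalling was followed in pressure-overloaded mouse hearts through 9 genes, which were chosen by symbol: the activin chains *Inhba* and *Inhbb*, the follistatin family genes *Fst*, *Fstl3* and *Fstl1*, and the activin receptor genes *Acvr1b*, *Acvr1*, *Acvr2a* and *Acvr2b*. All 9 were found among the 17570 Entrez Gene IDs of the expression files. RNA-sequencing had been performed on heart tissue taken 8 weeks after transverse aortic constriction (TAC), an operation that narrows the aorta and loads the left ventricle, with 3 wild-type hearts (WT/TAC) and 3 miR-27b-3p knockout hearts (KO/TAC). The knockout mice were made by TALEN injection into C57BL/6 eggs and lack 10 bases of the mature miR-27b-3p sequence in every cell of the body, and mice were 10 to 12 weeks old at operation. All 6 hearts carried TAC, so each comparison is between genotypes under load, without a sham group. The labels number the hearts but do not say whether each is 1 animal or a pool, and the p-values measure the spread between these samples. The mature miRNA is not read by these libraries, so the knockout was not checked here.

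Activins are dimers of the β chains encoded by *Inhba* and *Inhbb*. They bind a type II receptor (*Acvr2a* or *Acvr2b*), which recruits and phosphorylates a type I receptor, chiefly ALK4, the product of *Acvr1b*, and this passes the signal to SMAD2 and SMAD3. Follistatin (*Fst*) and follistatin-like 3 (*Fstl3*) are secreted proteins that wrap around activins and keep them from their receptors, and both genes are themselves induced by activin and TGF-β in several cell types. In the heart, activin A and FSTL3 are known to rise in failure, and SMAD3 signalling is a driver of fibroblast activation and scar matrix.

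Levels are given as FPKM (fragments scaled by the length of the transcript and the size of the library), so genes can be compared within a heart. Changes are log2 fold changes of FPKM + 0.5, KO/TAC against WT/TAC, fitted with limma across the 12520 genes whose mean reached 0.5 FPKM. A gene was called at the DEG thresholds when its unadjusted p was under 0.05 and its fitted fold at least 1.2. Adjusted p-values are by the Benjamini-Hochberg method over all genes tested.

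WT/TAC replicate 1 stood apart from the other hearts. Its ventricular light chain gene *Myl2* was at 81.0 FPKM, against 9735 to 14329 in the other 5, and its atrial light chain gene *Myl7* was at 8140. *Myl7* was also high in WT/TAC replicate 3 at 1135 and in KO/TAC replicate 2 at 333, and lay between 0.23 and 0.66 in the other 3 hearts. The WT/TAC replicate 1 library was thus high in atrial and low in ventricular markers, and results that rest on it are given with and without it. Summed FPKM ranged from 519562 to 553716 over the libraries. The depth, estimated from the spacing of low values in units of 1000000 fragments, was 14.8 to 15.9 in WT/TAC and 13.0 to 13.1 in KO/TAC.

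The deleted miRNA acts through its seed, bases 2 to 8 from the 5′ end, here in capitals, so the seed sites of the 9 genes come first. The RefSeq sequences (GRCm38.p6) are those of miR-27b-3p at chr13:63300760-63300780 on the + strand and of its relative miR-27a-3p at chr8:84208727-84208747 on the + strand, which has the same seed.
mmu-miR-27b-3p: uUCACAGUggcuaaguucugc
mmu-miR-27a-3p: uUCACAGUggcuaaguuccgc

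In DNA letters the match to bases 2 to 8 is ACTGTGA, the 8-base site is ACTGTGAA and the weakest kind searched, bases 2 to 7 followed by A, is CTGTGAA. The longest annotated 3′ UTR (untranslated region) of each gene (GENCODE M21, GRCm38) was searched on the transcribed strand. All 3 matches lay in receptor genes and are shown with the 14 bases before them, the match in capitals. The *Acvr1* site, at chr2:58447340-58447360 on the − strand, matches bases 2 to 8. The *Acvr2a* site, at chr2:48901413-48901434 on the + strand, is of the 8-base kind. The *Acvr2b* site, at chr9:119433718-119433738 on the + strand, is of the weakest kind, and only 1 of 3 *Acvr2b* transcripts with a 3′ UTR held a match.
Acvr1: aacctcgctcaaaaACTGTGA
Acvr2a: actatcaggagctcACTGTGAA
Acvr2b: gttgcggtgctgagCTGTGAA

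No match of any kind was found in the longest 3′ UTR of *Inhba*, *Inhbb*, *Fst*, *Fstl3*, *Fstl1* or *Acvr1b*, and 1 of 4 *Fst* transcripts with a 3′ UTR held one. Among 12320 tested genes with an annotated 3′ UTR, 17.3% held a match to bases 2 to 8, 6.3% the 8-base site and 28.9% any of the 3 kinds. Of the 3 genes with a match, none was called in the reported fit. *Acvr2b* passed the thresholds, higher in KO/TAC, in 7 of 18 alternative settings. A match of letters is a description and not a measured binding site.

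Across the 9 genes, 7 passed the filter on low values and were tested. Of these, *Fstl3* and *Fstl1* fell and 0 rose at the DEG thresholds, where 11.1% of all tested genes were called, 6.14% lower and 4.94% higher. None passed an adjusted p of 0.05, which 2 of 12520 genes (0.016%) did, while 2 of the 7 and 1402 of all tested genes had an unadjusted p under 0.05. The median log2 fold change of the 7 was -0.37, beside -0.0047 for all tested genes. The groups did not overlap for *Fstl3*, *Fstl1* and *Inhbb*, all lower in KO/TAC, where 9.79% of tested genes were lower without overlap and 8.46% higher.

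**Figure D1:**
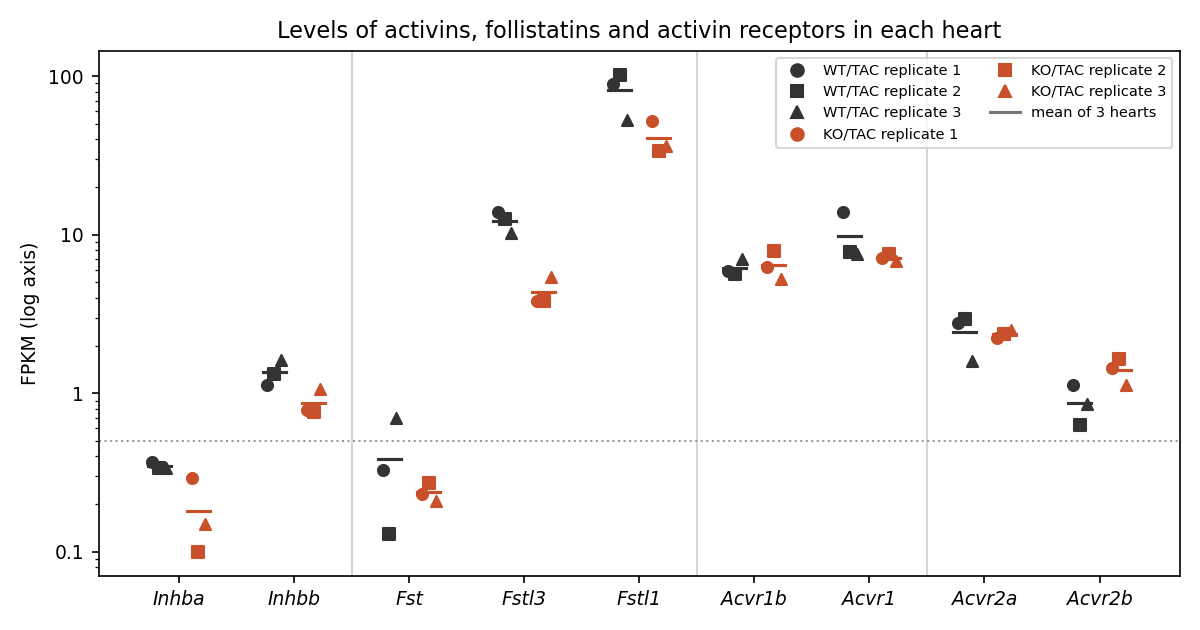
FPKM of the 9 genes in each heart on a log axis, WT/TAC in black and KO/TAC in orange, with the mean of 3 hearts as a bar; vertical lines part activin chains, follistatin genes, type I and type II receptors, and the dotted line marks the filter of 0.5 FPKM. *Fstl1* was the most abundant of the 9 in both groups, *Inhba* and *Fst* lay near or under the filter, and *Fstl3* was between 10.3 and 13.8 in WT/TAC and between 3.82 and 5.41 in KO/TAC.

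The activin chains were scarce. *Inhba* (Entrez Gene 16323, chr13:16011851-16031621, + strand), which encodes the βA chain of activin A, was at 0.37, 0.34 and 0.34 FPKM in WT/TAC and at 0.29, 0.10 and 0.15 in KO/TAC. Every knockout heart was below every wild-type heart, with means of 0.350 ± 0.0173 and 0.180 ± 0.0985 (SD, n = 3 each). At the estimated depth and the longest transcript these values stand for about 8.4 to 37.6 fragments a heart, and the gene did not reach the mean level required for the test. Without that filter its log2 fold change was -0.33, with an unadjusted p of 0.0266 and an adjusted p of 0.456 by limma.

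*Inhbb* (Entrez Gene 16324, chr1:119415465-119422248, − strand), the βB chain of activin B, was the more abundant chain in each heart. It was at 1.13, 1.32 and 1.61 FPKM in WT/TAC and at 0.78, 0.76 and 1.07 in KO/TAC. The groups were separate but close, and the means were 1.35 ± 0.242 and 0.870 ± 0.173 (SD, n = 3 each). The log2 fold change was -0.44 (SE 0.19, 95% interval -0.88 to 0.01) with an unadjusted p of 0.0553 and an adjusted p of 0.459, so *Inhbb* was not called. *Inhbb* was 2.69 to 7.60 times the *Inhba* level, with overlap between the groups.

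*Fstl3* showed the clearest change. *Fstl3* (Entrez Gene 83554, chr10:79777272-79782630, + strand), an antagonist of activins, myostatin and GDF11, was at 13.81, 12.49 and 10.27 FPKM in WT/TAC and at 3.82, 3.82 and 5.41 in KO/TAC. The lowest wild-type heart was above the highest knockout heart by a wide margin, and the means were 12.2 ± 1.79 and 4.35 ± 0.918 (SD, n = 3 each), a ratio of 2.80. The log2 fold change of *Fstl3* was -1.39 (SE 0.18, 95% interval -1.82 to -0.96), with an unadjusted p of 0.000131 that ranked 15 of 12520 and an adjusted p of 0.110. *Fstl3* passed the DEG thresholds in 19 of 19 alternative settings. Without WT/TAC replicate 1 its log2 fold change was -1.30.

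The *Fstl3* promoter is printed because *Fstl3* showed the clearest change of the genes tested. A part of SMADs in that change was not tested. The printed stretch runs over 300 bases, chr10:79777024-79777323 on the + strand, from 250 before to 50 after the start site (RefSeq, GRCm38.p6). Capitals mark a SMAD motif (CAGACA, here on the other strand as TGTCTG, 162 bases before the start) and a TATA motif (TATAAA, here as TTTATA, 29 bases before the start).
Fstl3: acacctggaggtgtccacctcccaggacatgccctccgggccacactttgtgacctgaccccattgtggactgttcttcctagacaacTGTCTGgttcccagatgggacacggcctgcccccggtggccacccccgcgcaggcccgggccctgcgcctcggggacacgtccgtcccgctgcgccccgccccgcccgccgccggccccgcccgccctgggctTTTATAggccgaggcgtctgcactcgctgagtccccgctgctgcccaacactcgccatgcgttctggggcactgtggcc

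Searches for 4 motifs on both strands were run over the promoters of 8 of the 9 genes, all but *Fst*. CAGACA occurred in 21% of 32851 promoters of the same length and TATAAA in 13.6%, while the AP-1 motif TGANTCA occurred in 7.81% and the TEAD motif GGAATG in 14.7%. *Inhba* held TATAAA 91 bases before its start, and the other 6 held none of the 4 motifs. These matches describe letters in the window only. On the opposite strand *Fstl3* overlaps *Prss57*, which was listed at 0.10 to 0.29 FPKM in the 6 hearts.

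*Fst* (Entrez Gene 14313, chr13:114452290-114458951, − strand), the founding activin antagonist, was barely expressed. It was at 0.33, 0.13 and 0.70 FPKM in WT/TAC and at 0.23, 0.27 and 0.21 in KO/TAC, about 5.6 to 31.5 fragments a heart on the same reckoning. The groups overlapped, with means of 0.387 ± 0.289 and 0.237 ± 0.0306 (SD, n = 3 each), and the gene was not tested. Of the summed *Fst* and *Fstl3* FPKM, *Fstl3* made up 93.4% to 99.0% in each heart.

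*Fstl1* (Entrez Gene 14314, chr16:37776873-37836514, + strand) encodes a secreted glycoprotein with a follistatin-like domain, known as a cardiokine made by fibroblasts and epicardial cells and not as a tight activin antagonist. It was at 88.86, 102.27 and 53.23 FPKM in WT/TAC and at 52.08, 33.63 and 36.48 in KO/TAC. The groups did not overlap, though WT/TAC replicate 3 and KO/TAC replicate 1 nearly met. The means were 81.5 ± 25.3 and 40.7 ± 9.93 (SD, n = 3 each), and the log2 fold change was -0.96 (SE 0.28, 95% interval -1.63 to -0.30), with an unadjusted p of 0.0109 and an adjusted p of 0.307. *Fstl1* passed the thresholds in 18 of 19 alternatives, the exception being a 2-sample test on FPKM without logarithm (p = 0.0606, a gene-by-gene parametric test and not exact). Without WT/TAC replicate 1 its log2 fold change was -0.88.

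**Figure D2:**
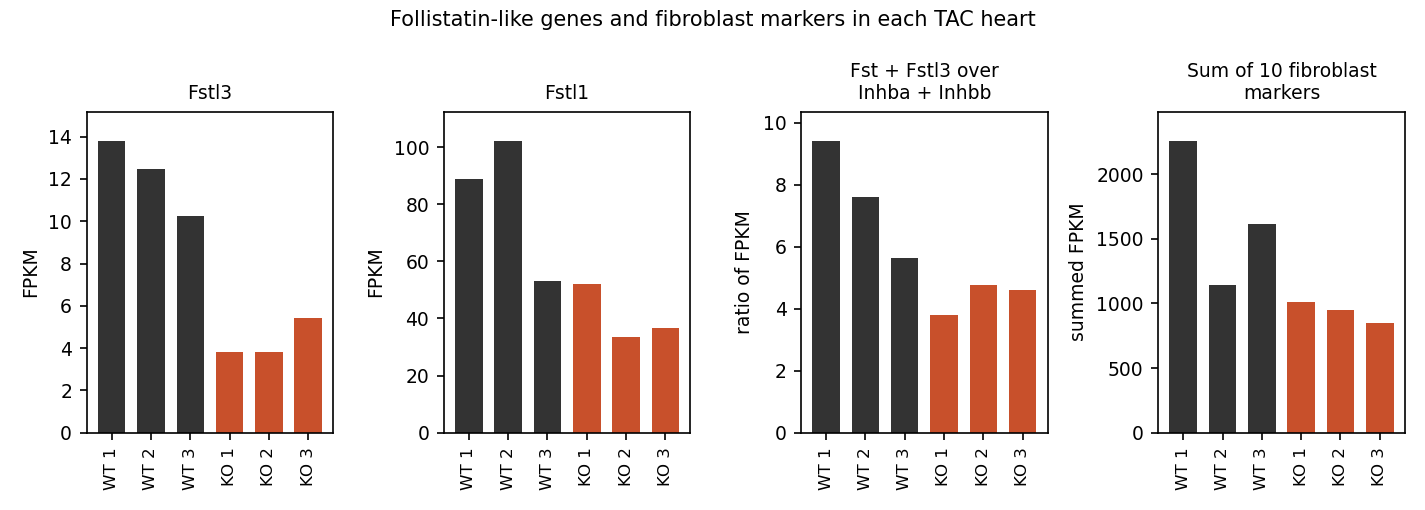
Bars give 1 heart each, WT/TAC in black and KO/TAC in orange, for *Fstl3* and *Fstl1* in FPKM, the ratio of *Fst* plus *Fstl3* to *Inhba* plus *Inhbb*, and the summed FPKM of 10 fibroblast markers, all axes from 0. In each panel the 3 KO/TAC hearts lie below the 3 WT/TAC hearts, by the least for *Fstl1*, at 52.1 against 53.2.

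Antagonist and ligand transcripts were set against each other in each heart. *Fst* plus *Fstl3* summed to 14.1, 12.6 and 11.0 FPKM in WT/TAC and to 4.05, 4.09 and 5.62 in KO/TAC, and *Inhba* plus *Inhbb* to 1.5, 1.66 and 1.95 in WT/TAC and 1.07, 0.86 and 1.22 in KO/TAC. Both sums were lower in every knockout heart. Their ratio was 9.43, 7.60 and 5.63 in WT/TAC and 3.79, 4.76 and 4.61 in KO/TAC, so antagonist transcripts exceeded ligand transcripts in all 6 hearts and the excess was smaller in each knockout heart. These are transcript ratios with no test, and nothing was measured of the proteins. *Fstl3* made up 93.4% to 99.0% of the antagonist sum, so the ratio is not independent of the *Fstl3* result. The other ratios formed of these genes overlapped between the groups, and the share of gene ratios that separate was not computed.

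None of the 4 receptor genes was called in the reported fit, with estimates from -0.37 for *Acvr1* to 0.48 for *Acvr2b* on the log2 scale. *Acvr1b* (Entrez Gene 11479, chr15:101174067-101213684, + strand), the type I activin receptor ALK4, was at 5.93, 5.65 and 7.01 FPKM in WT/TAC and at 6.28, 7.89 and 5.24 in KO/TAC. The knockout range enclosed the wild-type range, with means of 6.20 ± 0.718 and 6.47 ± 1.34 (SD, n = 3 each). The log2 fold change was 0.05 (SE 0.17, 95% interval -0.37 to 0.46; adjusted p = 0.947), an interval that leaves room for changes of either sign beyond the 1.2-fold limit.

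*Acvr1* (Entrez Gene 11477, chr2:58388644-58567157, − strand) encodes the type I receptor ALK2, which signals mainly for BMPs and can hold activin A in complexes that do not signal. It was at 13.95, 7.79 and 7.56 FPKM in WT/TAC and at 7.11, 7.59 and 6.78 in KO/TAC. WT/TAC replicate 1, the heart highest in atrial and lowest in ventricular markers, gave the only value above 8. The groups overlapped between WT/TAC replicate 3 at 7.56 and KO/TAC replicate 2 at 7.59. The means were 9.77 ± 3.62 and 7.16 ± 0.407 (SD, n = 3 each), and the log2 fold change was -0.37 (SE 0.24, 95% interval -0.93 to 0.19; adjusted p = 0.610). Without WT/TAC replicate 1 the *Acvr1* log2 fold change was -0.095.

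*Acvr2a* (Entrez Gene 11480, chr2:48814109-48903269, + strand), a type II receptor for activins and related ligands, carries the 8-base seed site. It was at 2.79, 2.95 and 1.59 FPKM in WT/TAC and at 2.22, 2.36 and 2.50 in KO/TAC. The knockout values lay inside the wild-type range, with means of 2.44 ± 0.743 and 2.36 ± 0.140 (SD, n = 3 each). The log2 fold change was -0.01 (SE 0.22, 95% interval -0.53 to 0.51; adjusted p = 0.992), and its sign turned in 6 of 18 alternatives. *Orc4*, which overlaps *Acvr2a* on the opposite strand, was at 3.13 to 5.53 FPKM, and whether the counting used strand is not given in the sources used here.

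*Acvr2b* (Entrez Gene 11481, chr9:119402118-119434995, + strand), the other type II receptor, was at 1.12, 0.63 and 0.86 FPKM in WT/TAC and at 1.44, 1.65 and 1.12 in KO/TAC. The groups met at 1.12, with means of 0.870 ± 0.245 and 1.40 ± 0.267 (SD, n = 3 each). It had the largest positive estimate of the 7, a log2 fold change of 0.48 (SE 0.21, 95% interval -0.02 to 0.98; unadjusted p = 0.0569, adjusted p = 0.461 by limma), and was not called. Without WT/TAC replicate 1 the estimate was 0.61 and passed the thresholds at an unadjusted p of 0.0220 by limma, as did *Inhbb* at -0.52 and 0.0312, so that 4 of the 7 were then called, 3 lower and 1 higher. In that fit 15% of all tested genes were called, 7.47% lower and 7.52% higher. *Acvr2b* passed the thresholds in 7 of 18 alternatives, among them median-ratio scaling (0.49), quantile normalization (0.52) and *Myl7* as a covariate (0.64).

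The *Acvr2a* to *Acvr2b* ratio was 2.49, 4.68 and 1.85 in WT/TAC and 1.54, 1.43 and 2.23 in KO/TAC. *Acvr2a* was the more abundant in each heart, and the ratio overlapped between the groups. The summed level of both type II genes was 2.45 to 3.91 FPKM in WT/TAC and 3.62 to 4.01 in KO/TAC, also with overlap.

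**Figure D3:**
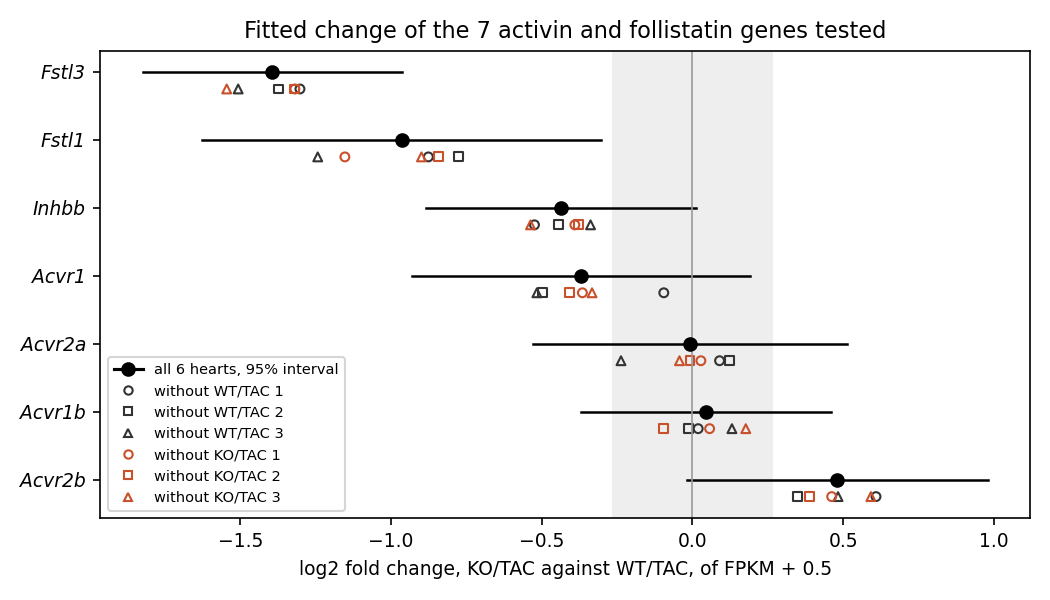
Fitted log2 fold change of the 7 genes tested, KO/TAC against WT/TAC, with its 95% interval in black, and open symbols for the fit without each heart in turn; the grey band is a change under 1.2-fold. The intervals of *Fstl3* (-1.82 to -0.96) and *Fstl1* (-1.63 to -0.30) lie below 0, and the *Acvr1* estimate moves from -0.37 to -0.095 without WT/TAC replicate 1.

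Ordered by mean level, WT/TAC hearts ran *Fstl1*, *Fstl3*, *Acvr1*, *Acvr1b*, *Acvr2a*, *Inhbb*, *Acvr2b*, *Fst*, *Inhba*. Neighbours whose values overlapped were *Fstl3* with *Acvr1*, *Acvr2a* with *Inhbb*, *Acvr2b* with *Fst* and *Fst* with *Inhba*. In KO/TAC hearts *Fstl3* stood in 4th place, behind *Acvr1* and *Acvr1b* with overlap between *Acvr1* and *Acvr1b* and between *Acvr1b* and *Fstl3*, and none between *Acvr1* and *Fstl3*. *Acvr2b*, below *Inhbb* in WT/TAC without overlap, was above it in KO/TAC without overlap. Both gaps were narrow. The highest *Acvr2b* value in WT/TAC was 1.12 FPKM and the lowest *Inhbb* value 1.13, and in KO/TAC the lowest *Acvr2b* value was 1.12 and the highest *Inhbb* value 1.07.

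Other genes of the pathway were taken from lists chosen with earlier results of these data known. They were read against the shares of all tested genes given above. Where a heart was left out the share moved, to 15% without WT/TAC replicate 1, 15.7% without WT/TAC replicate 2 (9.35% lower, 6.31% higher), 10.4% without WT/TAC replicate 3 and 7.68%, 7.17% and 5.04% without KO/TAC replicates 1, 2 and 3. Of 15 genes for related ligands, 8 were tested and 1 fell, *Bmp4*, from 4.46 ± 0.537 to 3.18 ± 0.171 FPKM (SD, n = 3 each), with a list median of -0.30 on the log2 scale. That median rested on single hearts, since it was -0.12 without WT/TAC replicate 1, -0.006 without WT/TAC replicate 3, and -0.035 or -0.061 in the fits lacking KO/TAC replicate 1 or 3, and it was 0.0 with *Myl7* as a covariate. *Bmp4* also missed the thresholds under quantile normalization and under the replicate block. Of 15 related receptors and co-receptors, 11 were tested and 1 fell, the TGF-β type II receptor gene *Tgfbr2*, from 24.1 ± 4.47 to 16.6 ± 1.06 FPKM, with a list median of -0.13 (-0.066 without KO/TAC replicate 2, and -0.20 in the fit lacking KO/TAC replicate 3). Without WT/TAC replicate 1, 4 of these receptors passed, 3 lower and 1 higher, and without WT/TAC replicate 2, 2 passed, both lower. For the ligands, leaving out WT/TAC replicate 2 gave 2 calls, while the fits lacking KO/TAC replicate 1 or KO/TAC replicate 3 gave 0.

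Of 16 other secreted antagonists and processing enzymes, 8 were tested and 3 fell, with a list median of -0.49. Without WT/TAC replicate 1 the median was -0.336 with 2 called, both lower. At a minimum mean of 5 FPKM it was -0.165 with 1 called, where 12.3% of all tested genes were called. Without a filter on low values it was -0.221 with 2 called, where 8.92% were called. *Nbl1*, a secreted BMP antagonist of the DAN family, went from 27.7 ± 6.10 to 13.1 ± 0.798 FPKM, a log2 fold change of -1.03. *Pcsk5*, a convertase that cuts precursors of this ligand family, changed by -0.64, and *Wfikkn2*, whose product binds myostatin and GDF11, by -0.48 with overlap between the groups.

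Inside the cell, 18 of 20 SMADs and partners were tested, 6 fell and 0 rose, with a list median of -0.13 (-0.20 without KO/TAC replicate 2). The 4 with the smallest p were *Skil*, a SMAD corepressor, at -0.50, *Tgif1*, another corepressor, at -0.62, the inhibitory SMAD gene *Smad6* at -0.89 and *Ski* at -0.57. *Smad2*, *Smad3* and *Smad4*, which carry the signal, had log2 fold changes of -0.05, -0.27 and -0.10 and were not called.

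Of 15 genes listed here as SMAD2/3 targets, all were tested, 10 fell and 0 rose, with a list median of -0.75. This list too was chosen with earlier results of these data known, and 6.14% of all tested genes were lower. *Ccn2*, which encodes a matricellular protein of fibrosis, was at 463, 373 and 200 FPKM in WT/TAC and at 35.7, 38.4 and 35.5 in KO/TAC, and its log2 fold change was -3.14 (adjusted p = 0.0706 by limma). The log2 fold change was -1.18 for the fibronectin gene *Fn1*, -1.10 for the sphingosine kinase gene *Sphk1* and -0.75 for *Pmepa1*, a feedback inhibitor of TGF-β signalling. *Smad7* and *Skil* stand in this list and in the one before it, and *Ltbp2* is shared with the activated fibroblast markers below. Many of these genes are also expressed by fibroblasts.

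**Figure D4:**
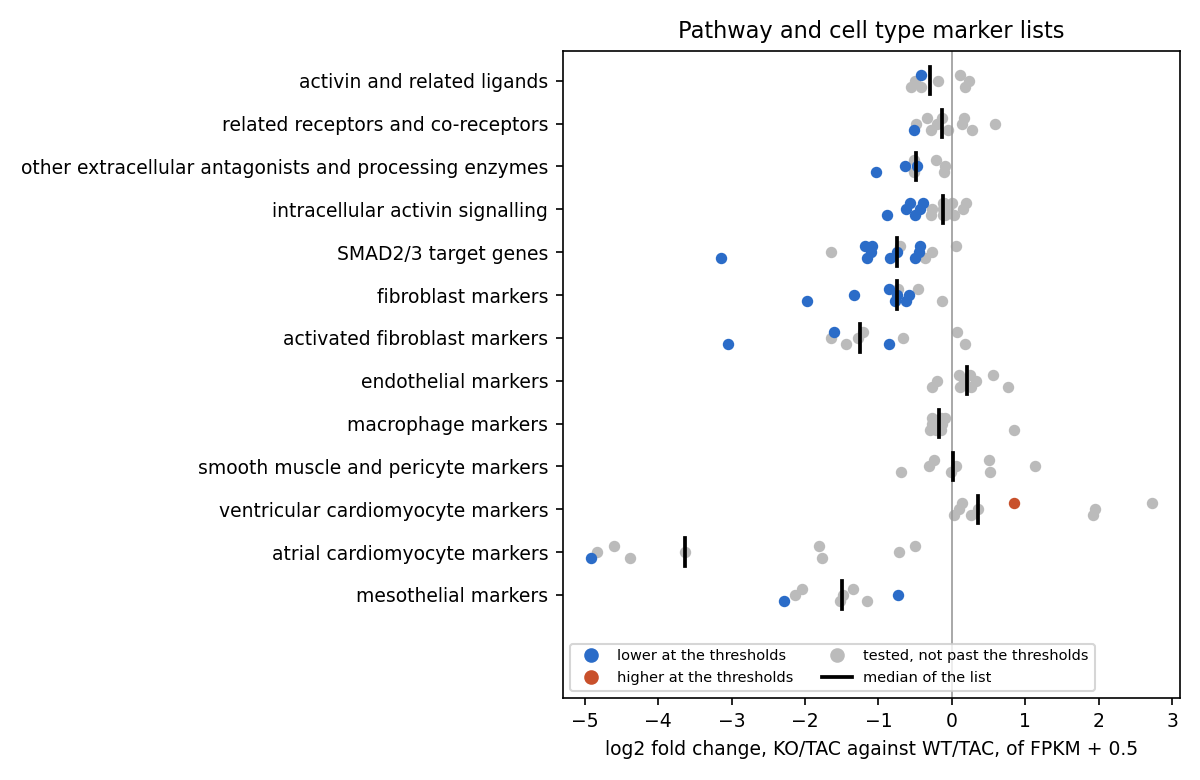
Fitted log2 fold change, KO/TAC against WT/TAC, of each tested gene of the pathway and marker lists, 1 point a gene, blue where lower and orange where higher at the DEG thresholds, grey where not called, with the list median as a black bar. SMAD2/3 target genes (10 of 15 lower) and fibroblast markers (7 of 10 lower) lie to the left, and atrial markers have a median of -3.64 with 1 of 9 called. Of all tested genes 6.14% were lower, and the lists were chosen with earlier results of these data known.

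Fibroblast marker transcripts were lower beside these results. All marker lists were chosen with earlier results of these data known, and 6.14% of all tested genes were lower. Of 10 fibroblast markers 7 fell, among them *Mfap4* (-1.97), *Pi16* (-1.34), *Pdgfra* (-0.59) and *Tcf21* (-0.85), and their summed level was 1146 to 2260 FPKM in WT/TAC and 849 to 1008 in KO/TAC, with none at 0 in all hearts. The list median was -0.75, and -0.50 without WT/TAC replicate 1. In bulk RNA, fewer fibroblasts and less RNA per fibroblast cannot be told apart. Divided by that sum, a scale chosen after the values were seen, *Fstl3* was 0.611, 1.09 and 0.635 FPKM per 100 FPKM of marker sum in WT/TAC and 0.379, 0.402 and 0.637 in KO/TAC, which overlapped through KO/TAC replicate 3. *Fstl1* on that scale was 3.93, 8.92 and 3.29 in WT/TAC and 5.17, 3.53 and 4.30 in KO/TAC, also with overlap. The scale raises every gene that fell less than the marker sum, and on it *Acvr1b* (0.262 to 0.493 in WT/TAC, 0.617 to 0.829 in KO/TAC), *Acvr1* (0.467 to 0.680 and 0.705 to 0.799) and *Acvr2b* (0.0496 to 0.0550 and 0.132 to 0.173) were higher in KO/TAC without overlap. The share of all tested genes that separate on this scale was not computed. The marker sum was itself lower in each KO/TAC heart, so the separation is not read as a result about these receptor genes. The part of the fibroblast marker difference in the lower *Fstl3* and *Fstl1* levels was not tested.

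Of 10 activated fibroblast markers 3 fell, *Comp* (-3.05), *Meox1* (-1.61) and *Lox* (-0.85), with a list median of -1.25. *Acta2* (0.18) and *Tnc* (0.07) were above 0 and not called. The summed level was 101 to 349 FPKM in WT/TAC and 92.7 to 125 in KO/TAC. Without WT/TAC replicate 1, 5 of the 10 were called, all lower, and the median was -1.87. Without WT/TAC replicate 2 the median was -0.42. With *Myl7* as a covariate 6 were lower (median -2.09), where 5.59% of all tested genes were lower. With sample weights 6 were lower (median -1.60), where 6.52% were. A 2-sample test without logarithm called 1, where 4.15% were lower. Atrial markers summed to 6260 to 81220 FPKM in WT/TAC and 115 to 2150 in KO/TAC, with 1 of 9 lower (*Nppa*, which is also induced in loaded ventricles), and ventricular markers to 19320 to 37830 and 44500 to 45950, with 1 of 9 higher (*Pln*, 0.84). Of 8 mesothelial markers, which line the heart surface, 2 were lower (*Krt18*, -2.29, and *Wt1*, -0.74), and the sums were 6.51 to 99.3 FPKM in WT/TAC and 2.35 to 12.6 in KO/TAC. Leaving out WT/TAC replicate 2, the wild-type heart lowest in both sets, gave 7 of 9 atrial and 8 of 8 mesothelial markers lower, where 9.35% of all tested genes were lower. Leaving out KO/TAC replicate 2 gave 2 atrial markers lower, where 4.01% of all tested genes were. Leaving out WT/TAC replicate 1 gave 3 ventricular markers higher, where 7.52% of all tested genes were. The atrial median, -3.64, was -5.21 without WT/TAC replicate 2 and -1.88 without WT/TAC replicate 1, and the mesothelial median, -1.50, was -2.47 and -0.69. The part of chamber and surface tissue in the results was not tested beyond the fits without WT/TAC replicate 1 and with *Myl7* as covariate. With the covariate the *Fstl3* log2 fold change was -1.43 and that of *Fstl1* -1.15. Without WT/TAC replicate 1 they were -1.30 and -0.88.

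Markers of other cell types had 0 called in either direction by limma. The list medians were 0.20 for 10 endothelial markers, -0.18 for 10 macrophage markers and 0.02 for 8 smooth muscle and pericyte markers. With a heart left out they ran from 0.12 (without KO/TAC replicate 1) to 0.28, from -0.26 to -0.052 (without KO/TAC replicate 2) and from -0.14 (without KO/TAC replicate 2) to 0.36 (without WT/TAC replicate 3). The 2 genes with the smallest p in each were *Egfl7* (0.26) and *Fabp4* (0.76), *Csf1r* (-0.30) and *C1qc* (-0.28), and *Abcc9* (1.13) and *Kcnj8* (0.52), all as log2 fold changes that missed the thresholds at unadjusted p-values of 0.0517 or more. Genes of the opposite sign, also not called, were *Pecam1* (-0.21) and *Cldn5* (-0.28) among endothelial markers and *Cx3cr1* (0.84) among macrophage markers. Among smooth muscle and pericyte markers they were *Cnn1* (-0.69), *Tagln* (-0.31), *Des* (-0.24) and *Smtn* (-0.02). With a heart left out, up to 3 endothelial (higher), 3 macrophage (2 lower, 1 higher) and 2 smooth muscle and pericyte markers were called. The most were without WT/TAC replicate 2, and without WT/TAC replicate 1 the counts were 1, 0 and 2.

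The genes most like *Fstl3* and *Fstl1* over the 6 hearts were sought among 7770 genes whose mean reached 5 FPKM, by the Euclidean distance of centred log2 values. Nearest to *Fstl3* were *Cebpd*, a stress-induced transcription factor gene, at a distance of 0.528, the elastin gene *Eln* at 0.613 and *Medag* at 0.615. *Eln* was at 60.3, 39.6 and 49.3 FPKM in WT/TAC and at 19.4, 17.2 and 17.6 in KO/TAC. Nearest to *Fstl1* were the fibrillar collagen genes *Col5a2*, at a distance of 0.323, and *Col3a1*, at 0.423, then *Spsb4* at 0.454. *Col5a2* was at 14.3, 19.5 and 11.1 FPKM in WT/TAC and at 8.35, 6.03 and 6.30 in KO/TAC, so it shared the low value of WT/TAC replicate 3 with *Fstl1*.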

How the data were processed

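RNA of 6 hearts was sequenced by the authors from libraries made with a stranded kit, and FPKM, rounded to 2 decimals, were deposited for 17570 Entrez Gene IDs in each. HISAT2 2.0.5 and StringTie 1.3.3 are listed in the submitters' processing notes. The sources used here do not give the build and annotation of each step or the strand setting, so coordinates come from GENCODE M21 and RefSeq on GRCm38. Symbols were matched for 17441 IDs through RefSeq. FPKM holds no counts, and the depth was estimated from low values of 449 genes with 1 transcript, of which 61.2% to 72.2% lay near a whole step, where chance gives 40%, so it is approximate. Fragment numbers are FPKM times that depth times the longest transcript of the gene, an upper estimate for the length only.

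Genes whose mean reached 0.5 FPKM entered the test as log2(FPKM + 0.5), which understates changes of low genes, with limma 3.58.1 in R 4.3.3 (lmFit, eBayes with a variance trend, two-sided). The script was tested on simulated data. Tables and figures used Python 3.11.15 with matplotlib 3.10.9, scipy 1.17.1, pandas 2.3.3 and numpy 2.4.6. Alternatives changed the pseudocount, filter, scaling, variance model, test, block, covariate or hearts. The 9 genes and the lists were chosen with earlier results of these data known. Named were the 9 genes and up to 4 called genes of each list by p (else the 2 with the smallest p). The 3 nearest genes of each called gene and the chamber markers were also named. *Smad2*, *Smad3*, *Smad4* and *Smad7*, *Ltbp2* and the genes that overlap a member were added for their role or position. Cell type markers of the sign opposite to those named from their list were added as well.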

Additional observations from a re-analysis of the deposited data

How the results depend on the processing

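*Fstl3* passed the DEG thresholds in 19 of 19 alternatives (log2 fold change -1.55 to -1.30, adjusted p 0.0925 to 0.560) and *Fstl1* in 18 of 19 (-1.24 to -0.78). *Inhbb* and *Acvr2b* each passed in 7 of 18, and *Acvr1*, *Acvr1b* and *Acvr2a* in none. A minimum mean of 5 FPKM left *Inhbb*, *Acvr2a* and *Acvr2b* untested. The count of the 9 genes called, 2 in the reported fit, was 5 (4 lower, 1 higher) without a filter on low values, 4 without a variance trend and 4 with sample weights, where 8.92%, 11% and 12.7% of all tested genes were called. It was 2 to 4 with a heart left out (4 without WT/TAC replicate 1, where 15% were called).

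With a heart left out, the estimate for *Acvr1b* ran from -0.097 to 0.177 and that for *Acvr2a* from -0.237 to 0.124, so both changed sign. *Acvr2a* was also positive under median-ratio scaling (0.008), quantile normalization (0.018) and sample weights (0.074), all within its interval.

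Same-numbered hearts did not deviate together (correlations -0.289, -0.565 and -0.346), so no pairing by number was seen. Deviations from means of 3 hearts depend on one another, so these values cannot exclude a pairing. With the replicate block 2 of the 9 genes, 879 of all genes at the DEG thresholds and 0 at an adjusted p under 0.05 were called. All genes at the DEG thresholds, 1387 in the reported fit, ranged from 631 (without KO/TAC replicate 3) to 1961 (without WT/TAC replicate 2) with a heart left out, and were 898 without KO/TAC replicate 2. At an adjusted p under 0.05 the reported 2 genes became 1 with a pseudocount of 0.1, median-ratio scaling, quantile normalization or a 2-sample test on log2 values. They became 0 with a pseudocount of 1, no filter, a minimum mean of 5 FPKM, *Myl7* as a covariate or a 2-sample test without logarithm, and 0 to 14 with a heart left out (14 without WT/TAC replicate 1). The cause was not tested. With 3 hearts a group, values of a few fragments as for *Inhba* and *Fst* limit what can be detected.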
